A study of Mus musculus with 13 samples.

Results

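Sphingolipid synthesis enzymes were examined in whole parametrial white adipose tissue (pmWAT), the fat pad beside the uterus, of mice with and without an induced adipocyte knockout of *Lmna*, which encodes lamin A/C of the nuclear lamina. The members were 10 genes chosen by name from the 33618 Ensembl genes counted, and each matched 1 gene: *Sptlc1*, *Sptlc2*, *Cers2*, *Cers4*, *Cers5*, *Cers6*, *Degs1*, *Sgms1*, *Sgms2* and *Ugcg*. All mice carried floxed *Lmna* alleles (Lmna fl/fl). The iADKO mice also carried 1 copy of Adipoq-CreERT2 (+/–), a tamoxifen-activated recombinase driven by the adiponectin promoter and so directed to adipocytes, whereas the fl/fl controls lacked it. Every animal, controls included, received tamoxifen at 50 mg/kg on 5 consecutive days at 12–14 weeks of age, and tissue was collected 2 weeks later. There were 7 libraries labelled fl/fl and 6 labelled iADKO, 1 per mouse.

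Sphingolipids are membrane lipids built on a sphingoid base. Synthesis starts in the endoplasmic reticulum, where serine palmitoyltransferase joins serine to palmitoyl-CoA, ceramide synthases attach a second fatty acyl chain, and dihydroceramide desaturase introduces the double bond that makes ceramide. Ceramide is then converted in the Golgi and at the plasma membrane to sphingomyelin or glucosylceramide, or is broken down to sphingosine. In adipose tissue, ceramides are best known for their association with obesity, insulin resistance and adiponectin signaling.

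Between 18854223 and 19776491 reads were counted on genes per library, and levels are given as TMM-normalized CPM (counts scaled to a common library size). *Lmna*, the targeted gene, did not fall with the iADKO label, at 84.7 ± 7.51 CPM in fl/fl (SD, n = 7) and 96.7 ± 11.5 CPM in iADKO (SD, n = 6), a log2 fold change of 0.19 (SE 0.079, edgeR adjusted p = 0.0785). These counts are for the whole gene, so the floxed exons could not be read apart. All 7 adipocyte markers checked were present. Their summed level was 16203–25081 CPM in fl/fl and 10383–18039 CPM in iADKO, and each of the 7 fell in iADKO. Of 8 macrophage markers, 5 were higher, with sums of 1942–5179 and 3005–5170 CPM. The library fl/fl 5 had the lowest adipocyte and the highest macrophage sum of its group, and iADKO 6 had the highest adipocyte and the lowest macrophage sum of its group. Of T cell markers 1 of 5 was higher, of B cell markers 2 of 4 were higher, and of endothelial markers 2 of 5 were lower. Over all genes tested, 14.1% were higher and 16.3% were lower, and the share of T cell markers (20%) was near that of all genes. No marker of adipose progenitors, mesothelium, smooth muscle and mural cells, fast skeletal muscle or Schwann cells passed the test, although 3 smooth muscle and mural markers and 1 marker each of progenitors, mesothelium and Schwann cells had an unadjusted p under 0.05. The part of cell makeup in the results below was not tested, and in whole tissue fewer cells of a type and less RNA per cell cannot be told apart.

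The synthesis enzymes differed little between genotypes. All 10 passed the filter on low counts, with 225–3810 counts per library, and 1 of them, *Sptlc1*, passed an adjusted p of 0.05, in the direction of lower. The share over all 16753 genes tested was 30.5% (14.1% higher and 16.3% lower). Without adjustment, 1 member was higher (*Ugcg*) and 2 were lower (*Sptlc1* and *Cers4*) at p under 0.05. Fold changes ran from −0.23 for *Cers4* to 0.23 for *Ugcg* on the log2 scale, with a median of 0.056 over the 10 members and 0.033 over all genes. None of the 10 was free of overlap between the groups, against 6.64% of all genes (2.71% higher and 3.93% lower). By the Wald test of DESeq2, 0 members were higher and 2 were lower (*Sptlc1* and *Cers4*), against 13.2% and 17.3% of all genes. Limma on the deposited rlog values gave the same member counts, against 13.4% and 17.4% of all genes.

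**Figure D1:**
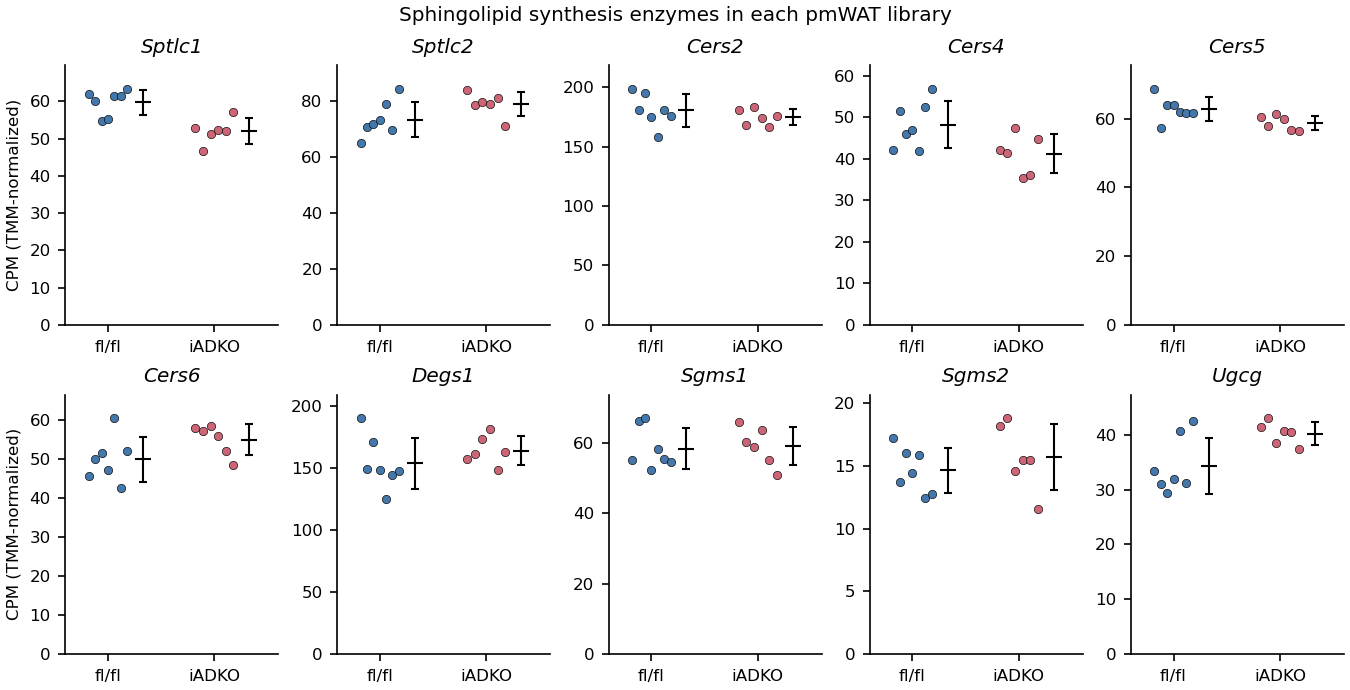
Each panel plots 1 enzyme, with the TMM-normalized CPM of every library on an axis that starts at 0 (blue, 7 fl/fl; red, 6 iADKO) and the mean ± SD beside the points. The 2 groups overlap in all 10 panels, least in *Sptlc1*, where 5 of 6 iADKO libraries lie below every fl/fl library.

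**Figure D2:**
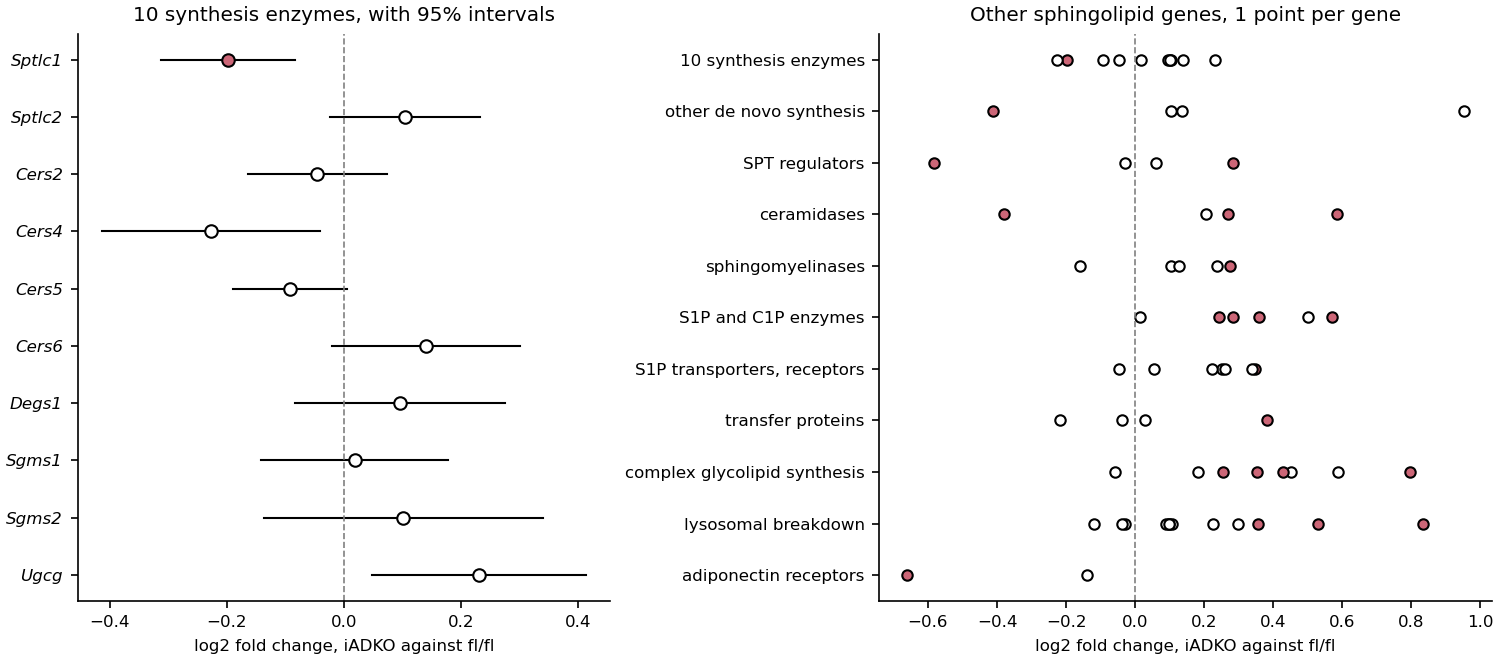
The left panel gives the log2 fold change of iADKO against fl/fl for the 10 enzymes with 95% intervals, and the right panel gives 1 point per gene for the enzymes and for the other sphingolipid genes by list. Filled points passed an adjusted p of 0.05. Only *Sptlc1* is filled among the enzymes, whereas 17 other genes are filled to the right of 0 and 4 to the left (S1P, sphingosine 1-phosphate; C1P, ceramide 1-phosphate; SPT, serine palmitoyltransferase).

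*Sptlc1* and *Sptlc2* encode the core subunits of serine palmitoyltransferase, the first and rate-limiting enzyme of the pathway. The second of them carries the lysine that binds the pyridoxal phosphate cofactor. *Sptlc1* (ENSMUSG00000021468) lies on the minus strand at chr13:53486729-53531449 of GRCm39 and *Sptlc2* (ENSMUSG00000021036) on the minus strand at chr12:87351832-87435267. Because the relative level of this pair differed between genotypes, as given next, the first promoter that RefSeq lists for each is shown, from 250 bases before to 50 bases after the start. The RefSeq table is on GRCm38.p6, and each 300-base window was placed on GRCm39 by an exact match, at chr13:53531348-53531647 and chr12:87435080-87435379, both on the minus strand. Capitals mark the GC box GGGCGG and the CCAAT box on either strand, and no marked stretches overlap.
Sptlc1: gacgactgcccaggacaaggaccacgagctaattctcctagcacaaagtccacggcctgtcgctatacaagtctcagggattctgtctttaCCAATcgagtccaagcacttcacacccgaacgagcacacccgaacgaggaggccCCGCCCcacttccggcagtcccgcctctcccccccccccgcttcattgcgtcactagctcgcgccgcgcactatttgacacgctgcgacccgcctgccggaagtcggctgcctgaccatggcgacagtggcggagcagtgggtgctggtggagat
Sptlc2: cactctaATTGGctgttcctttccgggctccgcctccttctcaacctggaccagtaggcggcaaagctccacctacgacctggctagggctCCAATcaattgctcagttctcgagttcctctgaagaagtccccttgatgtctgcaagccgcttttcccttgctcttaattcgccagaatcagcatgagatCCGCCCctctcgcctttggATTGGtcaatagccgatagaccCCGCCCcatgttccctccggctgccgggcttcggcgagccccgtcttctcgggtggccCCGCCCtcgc
The *Sptlc1* window held 1 GC box and 1 CCAAT box, and that of *Sptlc2* held 3 of each. Of 32851 RefSeq promoters of the same length, 35.7% held GGGCGG and 37.4% held CCAAT on either strand. Over the first promoters of all 10 members, 7 held GGGCGG, 5 held CCAAT and 3 (*Cers2*, *Cers6* and *Degs1*) held the E-box CACGTG, which 7.15% of all promoters held. TATAAA (13.6% of all promoters) and the sterol regulatory element TCACNCCAC (1.24%) were found in the first promoter of none of the 10. The GC content of these first promoters was 39.0% for *Sgms2* and 59.3–81.3% for the others, against a median of 52.7% over all promoters. The part of GC content in the motif counts was not tested.

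*Sptlc1* fell by 12.8% in iADKO. Its lowest, median and highest levels were 54.7, 61.3 and 63.4 CPM in fl/fl and 46.6, 52.2 and 57.1 CPM in iADKO. All 6 iADKO libraries were below the fl/fl median and 5 of 6 were below the lowest fl/fl library, and the exception was iADKO 6 at 57.1 CPM. From a mean of 59.7 ± 3.40 CPM in fl/fl (SD, n = 7) to 52.1 ± 3.37 CPM in iADKO (SD, n = 6), the log2 fold change was −0.20 (SE 0.053, 95% interval −0.31 to −0.084, edgeR adjusted p = 0.0127). The call was kept with each of the 13 libraries left out, and was lost with the series of animal numbers as a block (−0.17, adjusted p = 0.105, with 11.9% of all genes called), a grouping read from the numbers in the library names. Of these series, 1 held 2 libraries of each genotype and another held 3 fl/fl and 2 iADKO libraries, and there *Sptlc1* differed by −0.092 and −0.24 on the log2 scale. The other libraries came from series with 1 genotype only, where series and genotype cannot be told apart. On the opposite strand, 664 exonic bases of *Sptlc1* are shared with the lncRNA *Gm60480*. The library kit was strand-specific, but whether strand was used in counting is not given in the sources used here.

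*Sptlc2* did not pass the test. Its lowest, median and highest levels were 65.2, 71.9 and 84.5 CPM in fl/fl and 71.3, 79.3 and 84.1 CPM in iADKO. The range of iADKO lay inside that of fl/fl, with 5 of 6 libraries above the fl/fl median. From a mean of 73.5 ± 6.36 CPM in fl/fl (SD, n = 7) to 79.0 ± 4.26 CPM in iADKO (SD, n = 6), the log2 fold change was 0.10 (SE 0.060, 95% interval −0.024 to 0.23, adjusted p = 0.198).

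The ratio of the 2 subunits within each library does not depend on library scaling, and it was higher in iADKO. *Sptlc2* counts per *Sptlc1* count had a lowest, median and highest value of 1.05, 1.28 and 1.33 in fl/fl and of 1.25, 1.56 and 1.69 in iADKO. Of the 6 iADKO libraries, 5 were above every fl/fl library, and iADKO 6, at 1.25, was inside the fl/fl range. The mean log2 ratio rose from 0.30 ± 0.13 (SD, n = 7) to 0.60 ± 0.15 (SD, n = 6), a difference of 0.31 or 1.24-fold (exact two-sided permutation test, p = 0.00583, adjusted over the 5 ratios tested p = 0.0291, smallest possible p 0.000583). The adjusted p rose above 0.05 without fl/fl 1, 2 or 6 or without iADKO 1, 2, 3 or 5 (0.0541–0.0631), and with each of the 13 libraries left out the difference stayed between 0.27 and 0.36. It was 0.072 in the animal series with 2 libraries of each genotype and 0.48 in that with 3 fl/fl and 2 iADKO libraries. The 4 other ratios did not pass the test. The ratio uses the *Sptlc1* counts and so is not separate evidence from the fold change of that gene.

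**Figure D3:**
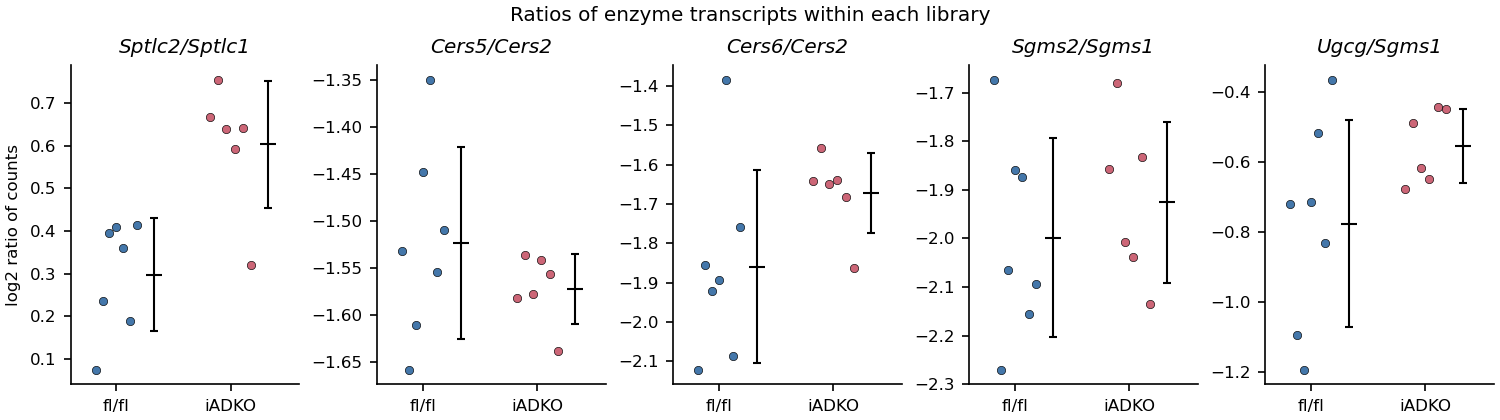
Each panel plots the log2 ratio of the counts of 2 enzymes within each library, with 7 fl/fl libraries in blue, 6 iADKO libraries in red and the mean ± SD beside them. The axes do not start at a common value. For *Sptlc2*/*Sptlc1*, 5 of 6 red points lie above all blue points, and in the other 4 panels the groups overlap throughout.

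The ceramide synthases differ in the acyl-CoA chain they prefer. Cers2 prefers very long chains, Cers4 long chains, and Cers5 and Cers6 palmitoyl-CoA. None of the 4 passed the test. Per kilobase of canonical transcript, *Cers2* made up 71.4% ± 1.56 (SD, n = 7) of the ceramide synthase transcripts *Cers1* to *Cers6* in fl/fl and 70.8% ± 1.24 (SD, n = 6) in iADKO. *Cers5* followed with 17.6% ± 0.944 and 16.9% ± 0.686, *Cers6* with 5.97% ± 0.957 and 6.69% ± 0.550, and *Cers4* with 4.47% ± 0.590 and 3.88% ± 0.327. *Cers1* held 0.257% ± 0.0497 and 0.291% ± 0.0841, and *Cers3*, which had too few counts to test, held 0.242% ± 0.295 and 1.48% ± 2.31, with 6.06% in iADKO 6 alone.

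*Cers2* (ENSMUSG00000015714, chr3:95221790-95234060, plus strand) had a lowest, median and highest level of 158, 181 and 199 CPM in fl/fl and 167, 175 and 183 CPM in iADKO. The iADKO range lay inside that of fl/fl. The log2 fold change was −0.045 (SE 0.055, 95% interval −0.16 to 0.073, adjusted p = 0.555). It shares 1309 exonic bases with *Setdb1*, a histone methyltransferase gene on the opposite strand, which was higher in iADKO (0.19, adjusted p = 0.0299).

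*Cers4* (ENSMUSG00000008206, chr8:4542809-4581680, plus strand) had a lowest, median and highest level of 41.9, 47.1 and 56.9 CPM in fl/fl and 35.5, 41.8 and 47.5 CPM in iADKO. Of 6 iADKO libraries, 5 were below the fl/fl median and 3 below the lowest fl/fl library. The log2 fold change was −0.23 (SE 0.087, 95% interval −0.41 to −0.040, adjusted p = 0.0616). The result lay near the threshold, which it passed without fl/fl 1 (−0.26, adjusted p = 0.0473), fl/fl 5 (−0.25, 0.0290), iADKO 3 (−0.27, 0.0404) or iADKO 6 (−0.25, 0.0488).

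*Cers5* (ENSMUSG00000023021, chr15:99632477-99670783, minus strand) had a lowest, median and highest level of 57.2, 61.9 and 68.7 CPM in fl/fl and 56.5, 58.9 and 61.4 CPM in iADKO. All 6 iADKO libraries were below the fl/fl median, within a narrow range. The log2 fold change was −0.093 (SE 0.045, 95% interval −0.19 to 0.0043, adjusted p = 0.133).

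*Cers6* (ENSMUSG00000027035, chr2:68691455-68944627, plus strand) had a lowest, median and highest level of 42.6, 49.9 and 60.4 CPM in fl/fl and 48.3, 56.5 and 58.4 CPM in iADKO. The highest of all was fl/fl 5, the control library with the most macrophage marker RNA. The log2 fold change was 0.14 (SE 0.075, 95% interval −0.021 to 0.30, adjusted p = 0.169), and without fl/fl 5 it was 0.20 (adjusted p = 0.0225). Per *Cers2* count, *Cers6* had a mean log2 ratio of −1.86 ± 0.25 in fl/fl (SD, n = 7) and −1.67 ± 0.10 in iADKO (SD, n = 6), a difference of 0.19 (exact two-sided permutation test, adjusted p = 0.194). Without fl/fl 5 this difference was 0.27 (adjusted p = 0.0216). *Cers5* per *Cers2* differed by −0.049 (exact permutation test, adjusted p = 0.389).

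*Degs1* (ENSMUSG00000038633, chr1:182103335-182110389, minus strand) encodes the desaturase that turns dihydroceramide into ceramide. It ranged from 125 to 191 CPM with a median of 149 CPM in fl/fl, and from 148 to 182 CPM with a median of 162 CPM in iADKO. The widest spread was among the controls, between fl/fl 5 at 125 CPM and fl/fl 1 at 191 CPM. The log2 fold change was 0.095 (SE 0.084, 95% interval −0.084 to 0.27, adjusted p = 0.406). Within the animal series that held both genotypes it was 0.33 and −0.085, so its sign differed between them.

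Ceramide is used by the sphingomyelin synthases, of which Sgms1 acts in the Golgi and Sgms2 mainly at the plasma membrane, and by glucosylceramide synthase (Ugcg), the entry to glycosphingolipids. *Ugcg* (ENSMUSG00000028381, chr4:59189035-59222845, plus strand) had a lowest, median and highest level of 29.3, 31.9 and 42.4 CPM in fl/fl and 37.4, 40.6 and 43.0 CPM in iADKO. All 6 iADKO libraries were above the fl/fl median. In fl/fl, 5 libraries were between 29.3 and 33.4 CPM, below every iADKO library, and fl/fl 5 at 40.7 CPM and fl/fl 7 at 42.4 CPM were within the iADKO range. From a mean of 34.3 ± 5.16 CPM in fl/fl (SD, n = 7) to 40.2 ± 2.03 CPM in iADKO (SD, n = 6), the log2 fold change was 0.23 (SE 0.085, 95% interval 0.047 to 0.41, adjusted p = 0.0543). The call turned on single libraries, since the threshold was passed without fl/fl 5 (0.28, adjusted p = 0.0115), fl/fl 7 (0.29, 0.0118) or iADKO 6 (0.25, 0.0459). Macrophage marker sums were 5179 CPM in fl/fl 5 and 3421 CPM in fl/fl 7, the highest values among the controls.

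*Sgms1* (ENSMUSG00000040451, chr19:32097497-32367505, minus strand) had a lowest, median and highest level of 52.3, 55.4 and 67.1 CPM in fl/fl and 51.0, 59.6 and 66.0 CPM in iADKO. Its log2 fold change of 0.018 (SE 0.075, 95% interval −0.14 to 0.18, adjusted p = 0.873) changed sign without fl/fl 4, iADKO 1 or iADKO 4. The lncRNA *Sgms1os1*, which shares 1429 exonic bases with it on the opposite strand, fell by 0.40 on the log2 scale (adjusted p = 0.0212). *Sgms2* (ENSMUSG00000050931, chr3:131112634-131197172, minus strand) had a lowest, median and highest level of 12.4, 14.4 and 17.2 CPM in fl/fl and 11.6, 15.5 and 18.8 CPM in iADKO, with a log2 fold change of 0.10 (SE 0.11, 95% interval −0.14 to 0.34, adjusted p = 0.511). For *Sgms2*, 2 iADKO libraries were above and 1 was below all controls, and for both genes the groups overlapped. The log2 ratio of *Ugcg* to *Sgms1* was −0.78 ± 0.30 in fl/fl (SD, n = 7) and −0.55 ± 0.11 in iADKO (SD, n = 6), a difference of 0.22 (exact two-sided permutation test, adjusted p = 0.194). That of *Sgms2* to *Sgms1* differed by 0.073 (exact permutation test, adjusted p = 0.490).

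Levels of different genes were compared per kilobase of the canonical transcript. In fl/fl, *Cers2* (81.4 ± 6.16 CPM per kb, SD, n = 7) and *Degs1* (75.1 ± 10.2) led and overlapped each other. *Sptlc1* (22.6 ± 1.29) and *Cers5* (20.1 ± 1.11) came next, overlapped each other and were below every value of *Degs1*. The order went on with *Sptlc2* (10.7 ± 0.929), *Sgms1* (8.51 ± 0.861), *Ugcg* (8.10 ± 1.22), *Cers6* (6.77 ± 0.779) and *Cers4* (5.08 ± 0.593). *Sptlc2* was below every *Cers5* value, and from there each gene overlapped the next in fl/fl. *Sgms2* was lowest at 2.52 ± 0.311, below every *Cers4* value. In iADKO the order was the same except that *Degs1* (80.2 ± 5.75, SD, n = 6) was above *Cers2* (78.9 ± 3.00) and *Ugcg* (9.50 ± 0.481) was above *Sgms1* (8.62 ± 0.805), the latter in all 6 libraries. The place of some genes depends on the length used. Per kilobase of all annotated exons, *Sgms1* (3.12 ± 0.315 in fl/fl) dropped below *Cers4* (3.53 ± 0.412), *Degs1* rose above *Cers2* and *Cers5* above *Sptlc1*. On that scale the mean of *Degs1* was above that of *Cers2* in both genotypes (41.0 and 35.0 in fl/fl, 43.8 and 33.9 in iADKO). The mean of *Ugcg* was likewise above that of *Sgms1* (5.95 and 3.12 in fl/fl, 6.98 and 3.16 in iADKO). Neither of these orders therefore differed between genotypes there.

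**Figure D4:**
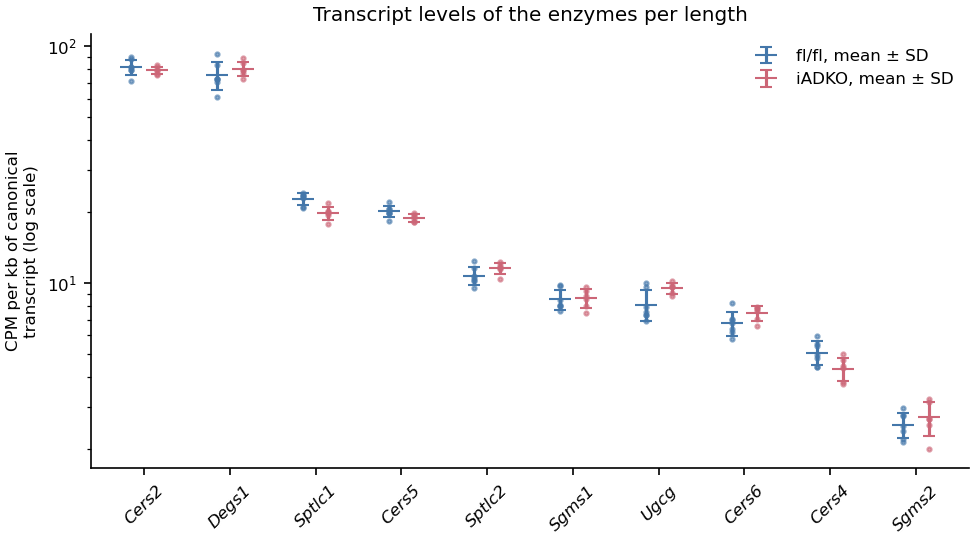
The plot gives CPM per kilobase of canonical transcript on a log axis for each enzyme, in the order of the fl/fl mean, with a dot per library and the mean ± SD of 7 fl/fl (blue) and 6 iADKO (red) libraries. *Cers2* and *Degs1* stand above the other 8, and *Sgms2* is lowest.

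For each member, the largest difference between libraries of the same genotype exceeded the fold change between genotypes. That sets a range against a difference of means, so it does not weigh the spread between mice against genotype. Members were also compared across libraries with the genotype means subtracted. Over 13 libraries and 45 pairs of members, the highest correlation of log2 CPM was between *Cers2* and *Degs1* (Pearson r = 0.86, permutation p = 0.00201, adjusted p = 0.0904; Spearman rho = 0.68, permutation p = 0.0177, adjusted p = 0.280). It was 0.95 within fl/fl and 0.46 within iADKO. Both genes were highest in fl/fl 1 and lowest in fl/fl 5 of the controls, and without the 2 libraries farthest from the median of *Cers2* r was 0.64. *Sptlc2* correlated with *Ugcg* (r = 0.73, permutation p = 0.0155, rho = 0.69, permutation p = 0.0186) and with *Cers6* (r = 0.67, permutation p = 0.0267, rho = 0.74, permutation p = 0.00615), and without the 2 farthest libraries r was 0.70 and 0.75. None of the 45 pairs passed 0.05 after Benjamini-Hochberg adjustment, where the lowest Spearman value was 0.277. All values share the 13 libraries and their scaling.

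**Figure D5:**
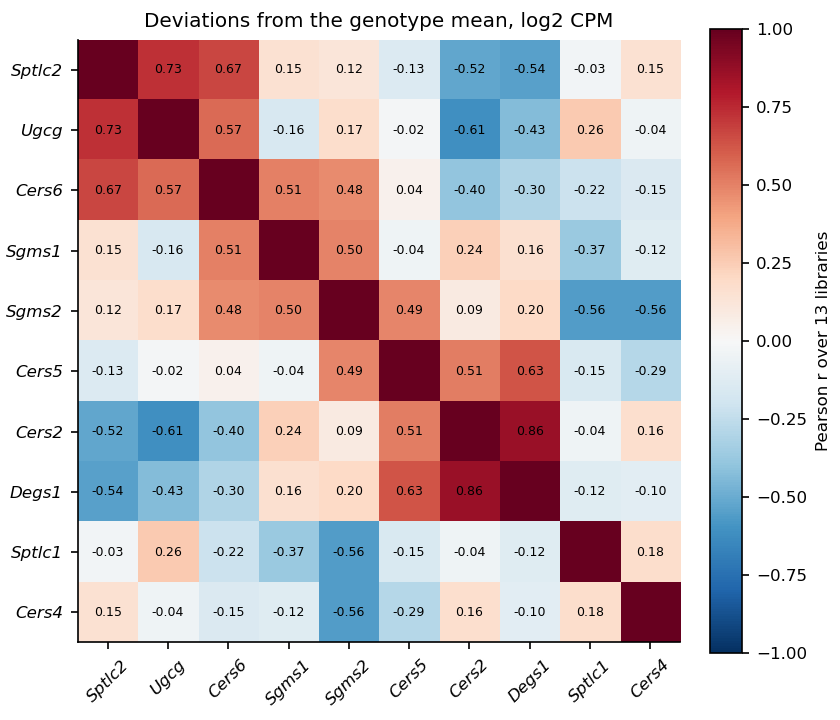
The map gives Pearson's r for each pair of enzymes over 13 libraries after the mean of each genotype was subtracted from log2 CPM, from −1 (blue) to 1 (red). *Cers2* and *Degs1* have the highest value at 0.86, and *Sptlc2*, *Ugcg* and *Cers6* have 0.57 to 0.73 among themselves.

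Over all genes tested, the gene most like each member by the same measure was *Chmp2b* for *Sptlc1* (r = 0.85), *Bmp1* for *Sptlc2* (0.93), *Cavin2* for *Cers2* (0.96), *Uxt* for *Cers4* (0.86) and *Caml* for *Cers5* (0.88). For *Cers6* it was *9330151L19Rik* (r = 0.94), for *Degs1* *Alg3* (0.95), for *Sgms1* *Tmem65* (0.92), for *Sgms2* *Tbc1d10b* (0.94) and for *Ugcg* *Runx1* (0.96). *Cavin2* encodes a caveolar coat protein and *Runx1* a transcription factor of blood cells. Each is the highest value over all genes tested in 13 libraries and is given as a description.

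Among other sphingolipid genes, calls of higher outnumbered calls of lower, but not with the series of animal numbers as a block. Of 62 other sphingolipid genes on 10 lists, 56 had enough counts to test, 17 were higher (30.4%, against 14.1% of all genes) and 4 were lower (7.14%, against 16.3%), with a median log2 fold change of 0.21. The counts moved with single libraries. Without fl/fl 4 or 6, 11 genes were higher (19.6%, against 11.56% and 10.98% of all genes in the same fits), and without iADKO 1 or 2, 11 were higher (18.97%, against 12.3% and 10.8%). Without iADKO 4, 9 were higher (15.5%, against 10.7% of all genes), and without fl/fl 5, 7 were lower (12.5%, against 19.7% of all genes). With the animal series as a block, 3 were higher (5.36%, against 4.68% of all genes) and 3 were lower (5.36%, against 7.17%), so the share of higher genes was near that of all genes there. Of the 17 higher genes, 9 were called with each of the 13 libraries left out, of which *Ormdl1*, *Sgpl1*, *Sgpp1*, *A4galt*, *Gla* and *Psap* lost the call with the animal series block (adjusted p 0.0637–0.131). *Acer3*, *Gltp* and *B4galnt1* were past the threshold under all 22 other settings tried, as were the lower genes *Ormdl3*, *Asah2* and *Adipor2*. The lower gene *Kdsr* was past it except with that block.

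Among 4 other tested genes of de novo synthesis, 1 was lower (25%, against 16.3% of all genes) and none was higher. This was *Kdsr*, which encodes the ketoreductase that follows serine palmitoyltransferase. It fell by 0.41 on the log2 scale (SE 0.088, adjusted p = 0.00395), and by 0.33 with the animal series block, where the call was lost (adjusted p = 0.0755). Its lowest, median and highest levels were 52.0, 58.0 and 65.1 CPM in fl/fl and 39.4, 42.1 and 57.6 CPM in iADKO, with 5 of 6 iADKO libraries below every fl/fl library. The small subunit gene *Sptssa* was at 0.10 (adjusted p = 0.170). Of 4 regulators of serine palmitoyltransferase, 1 was lower (25%, against 16.3% of all genes) and 1 was higher (25%, against 14.1%). *Ormdl3*, a ceramide-sensing inhibitor of the enzyme, fell by 0.58 (SE 0.11, adjusted p = 0.00172) and its homolog *Ormdl1* rose by 0.28 (SE 0.084, adjusted p = 0.0204). *Ormdl3* was at 343, 394 and 454 CPM in fl/fl and 219, 249 and 365 CPM in iADKO (lowest, median and highest), with 5 of 6 iADKO libraries below all controls. *Ormdl3* counts were far above those of *Ormdl1* (6.81 ± 0.504 CPM in fl/fl, SD, n = 7) and *Ormdl2* (20.5 ± 1.70 CPM).

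Of 4 ceramidases, which cleave ceramide to sphingosine, 2 rose and 1 fell, against 14.1% higher and 16.3% lower over all genes. *Asah2*, the neutral ceramidase, was at 50.9–57.8 CPM in fl/fl and 36.1–44.5 CPM in iADKO, with no overlap, and fell by 0.38 on the log2 scale (SE 0.055, adjusted p = 0.000449). The alkaline ceramidase *Acer3* rose by 0.59 (SE 0.13, adjusted p = 0.00450) and the lysosomal acid ceramidase *Asah1* by 0.27 (SE 0.082, adjusted p = 0.0232). *Asah1* lost its call without iADKO 4 and with the animal series block. Of 5 genes listed as sphingomyelinases or related to them, 1 was higher (20%, against 14.1% of all genes). None fell (edgeR, also at an unadjusted p under 0.05). The higher gene was the acid sphingomyelinase-like *Smpdl3b* (0.27, SE 0.090, adjusted p = 0.0336), with the call lost in 8 of the 13 fits that left out 1 library. None of the other 4, the sphingomyelinases proper, was called (edgeR adjusted p 0.0987–0.337).

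Of 6 genes for sphingosine 1-phosphate and ceramide 1-phosphate enzymes, 4 rose (14.1% of all genes were higher). These were the ceramide kinase *Cerk* (0.57, SE 0.20, adjusted p = 0.0432), the phosphatase *Sgpp1* (0.36, SE 0.092, adjusted p = 0.00997), the lyase *Sgpl1* (0.28, SE 0.080, adjusted p = 0.0160) and the kinase *Sphk2* (0.24, SE 0.085, adjusted p = 0.0431). *Cerk* and *Sphk2* lost the call in 11 and 9 of the 13 fits that left out 1 library, and all 4 genes lost it with the animal series block. Of 7 transporters and receptors of sphingosine 1-phosphate, 1, *S1pr2*, rose (0.35, SE 0.12, adjusted p = 0.0384, lost in 10 of 13). That share of 14.3% was near the 14.1% over all genes. Of 4 lipid transfer proteins, 1 was higher (25%, against 14.1% of all genes). This was the glycolipid carrier *Gltp*, which rose by 0.38 (SE 0.072, adjusted p = 0.00199), from 62.6–83.7 CPM in fl/fl to 84.3–103 CPM in iADKO with no overlap. The ceramide carrier *Cert1* was at −0.039 (adjusted p = 0.634).

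Of 8 tested genes on the list of complex glycosphingolipids and related lipids, 4 rose (14.1% of all genes were higher) and none fell, also without adjustment. *B4galnt1*, which makes the ganglioside GM2, rose by 0.80 (SE 0.20, adjusted p = 0.00966), *St3gal5*, which makes GM3, by 0.43 (SE 0.14, adjusted p = 0.0343), the lactosylceramide synthase *B4galt6* by 0.35 (SE 0.12, adjusted p = 0.0330) and the globoside enzyme *A4galt* by 0.25 (SE 0.073, adjusted p = 0.0186). Of 12 genes for glycosphingolipid breakdown, most of them lysosomal, 3 rose (14.1% of all genes were higher) and none fell, again also without adjustment. They were the alpha-galactosidase *Gla* (0.83, SE 0.20, adjusted p = 0.00701), the saposin precursor *Psap* (0.53, SE 0.13, adjusted p = 0.00945) and the hexosaminidase subunit *Hexa* (0.36, SE 0.11, adjusted p = 0.0280). *St3gal5*, *B4galt6* and *Hexa* lost the call in 8, 8 and 9 of the 13 fits that left out 1 library. Of the genes on these lists that rose, only *B4galnt1* kept the call with the animal series block. Of both adiponectin receptors, which have been tied to ceramide breakdown, *Adipor2* fell by 0.66 (SE 0.13, adjusted p = 0.00199), from a median of 971 to 584 CPM, and *Adipor1* was at −0.14 (adjusted p = 0.0696). Macrophage marker sums were higher and adipocyte marker sums lower in most iADKO libraries, as given above, and their part in these lists was not tested.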

How the data were processed

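Strand-specific mRNA libraries of whole pmWAT from 13 mice were sequenced in pairs and aligned with STAR 2.7.11a to mm39 after FastQC 0.12.1, per the paper's methods and the submitters' notes. The counting tool, annotation and strand setting are not given in the sources used here. The authors deposited raw counts per gene for 33618 Ensembl genes, and log2 values made from them with DESeq2 (rlog). Of the identifiers, 33184 were in GENCODE vM39 (GRCm39).

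In R 4.3.3, genes were filtered by filterByExpr of edgeR 4.0.16 (16753 left), normalized by TMM and compared with its robust quasi-likelihood test, with Benjamini-Hochberg adjustment over all genes tested and a threshold of 0.05. SE and 95% intervals come from this fit. Ratios of counts (0.5 added) were compared by exact permutation over splits of 7 and 6, and correlations by 100000 permutations within genotype of log2 CPM (prior count 2). The code was tested on simulated data. Depth per library was 18854223–19776491 reads on genes, and errors are the spread between mice.

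Members and lists were chosen with earlier results of these data known. Genes named are the 10 members, *Lmna*, up to 4 genes past the threshold with the largest change per list, and the gene most correlated with each member. *Sptssa*, *Ormdl2*, *Cert1*, *Adipor1*, *Setdb1*, *Sgms1os1*, *Gm60480*, *Degs2*, *Cers1*, *Cers3*, *Sptlc3*, *Sptssb*, *Krt5* and *Cdh1* were named after their values were seen. Alternatives were DESeq2 size factors, DESeq2 1.42.0 with its Wald test, no filter, at least 10 counts in every library, blocks for the replicate number and the animal series, limma 3.58.1 on rlog, scaling without mitochondrially encoded genes, each library left out, and, added after earlier results were known, fl/fl 5 and iADKO 6 left out together. For the ratios they were 5 added in place of 0.5, pairs by replicate number and the omissions of libraries. No protein sequences were used here.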

Additional observations from a re-analysis of the deposited data

Results flagged for a closer look

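In 5 of 74 groups of libraries screened, 1 library stood apart from the rest of its group by more than Dixon's test allows at 95%, where chance alone would give about 1 in 20. In fl/fl 5, 3 genes were above the other 6 controls. *Cerk* was at 106 CPM there and at 47.5–65.2 CPM in the others (gap over range 0.695), *Asah1* at 189 CPM against 133–151 CPM (0.670) and *Psap* at 4531 CPM against 2778–3438 CPM (0.624). The ratio of *Cers6* to *Cers2* in fl/fl 5 was 0.383, against 0.230–0.296 in the other controls (gap over range 0.571). In iADKO 6, *Ormdl3* was at 365 CPM, against 219–266 CPM in the other 5 iADKO libraries (0.680). These are the libraries whose adipocyte and macrophage marker sums were nearest the other genotype. Library iADKO 6 also held the most counts of the epithelial genes *Krt5* (1989) and *Cdh1* (758), which are described below. The part of any of these markers in the values was not tested.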

How the results depend on the processing

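Among the 220 fold changes of members under 22 other settings, the direction changed only for *Sgms1*, in 3 fits without 1 library (without fl/fl 4, −0.0074; iADKO 1, −0.012; iADKO 4, −0.0023), over a range of −0.012 to 0.057. *Sptlc1* was past the threshold in 21 of 22. The count of lower members was 2 (*Cers4* added) with DESeq2 size factors (17.4% of all genes lower), the DESeq2 Wald test (17.3%) or limma on rlog (17.4%). It was also 2 (*Cers4* added) without both fl/fl 5 and iADKO 6 (23.3%). It was 0 with the animal series block (7.17%) and 1 to 2 with single libraries left out (13.1–19.7%). The count of higher members was 1 (*Ugcg*) with at least 10 counts in every library (16.2% of all genes higher). That count was 2 (*Cers6* and *Ugcg*) without both libraries (19.6%) and 0 to 2 with single libraries left out (10.6–19.9%). Other sphingolipid genes called higher numbered 11 with no filter (17.7%, against 4.83% of all genes) and 3 with the animal series block (5.36% against 4.68%). Without single libraries they numbered 9 to 22 (15.5–39.3%, against 10.6–19.9% of all genes). Those called lower numbered 7 without both libraries (12.5%, against 23.3% of all genes) and 4 to 7 without single ones (6.90–12.5%, against 13.1–19.7%). The animal series block called 1986 genes in all, against 5104. The *Sptlc2*/*Sptlc1* difference was 0.27 to 0.36 without single libraries and 0.37 without both, and that of *Cers6*/*Cers2* was 0.14 to 0.27 and, without both libraries, 0.30 (exact permutation test, adjusted p = 0.0108). The causes were not tested. *Sgms2* had the fewest counts of the 10 members (225–403 per library) and the widest interval (SE 0.11).

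Labels give both groups replicate numbers 1 to 6. With the replicate number as a block, 1 member was higher (*Ugcg*, 0.29, adjusted p = 0.0144), with 14.3% of all genes higher in that fit. The *Sptlc2*/*Sptlc1* difference over 6 pairs was 0.33 (exact sign-flip permutation test, adjusted p = 0.0781, smallest unadjusted p 0.03125). Of 6 same-numbered pairs, 3 correlated above 0.1, and 2 iADKO libraries correlated best with their own number, so the numbers were not taken to pair the animals.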

Other observations

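Subunits and isoforms of the synthesis enzymes that the filter removed were concentrated in the same 5 libraries. *Sptssb*, a small subunit of serine palmitoyltransferase, had 123 and 107 counts in fl/fl 3 and 6 and 154, 227 and 1044 counts in iADKO 3, 5 and 6, and 0–3 counts in the other 8 libraries. In iADKO 6 it was at 51.3 CPM, near *Sptssa* at 58.9 CPM in that library. *Sptlc3*, an alternative catalytic subunit, had 7–102 counts in those 5 and 0–2 in the others, and *Cers3*, a ceramide synthase for ultra-long acyl chains best known in skin, had 11–166 and 0–5. In the same 5 libraries *Krt5*, a keratin of basal epithelial cells, had 134–1989 counts, and in the other 8 it had 0–1. *Cdh1*, the epithelial cadherin, had 50–758 and 4–15 counts. *Krt5* and *Cdh1* were chosen after their values were seen, and the part of such cells in these counts was not tested. With no filter on low counts, edgeR gave *Sptssb* a log2 fold change of 2.62 (SE 1.63, adjusted p = 0.366), *Sptlc3* 2.67 (SE 1.36, adjusted p = 0.266) and *Cers3* 2.56 (SE 1.12, adjusted p = 0.187). *Degs2*, the paralog of *Degs1*, had 66 counts in iADKO 6 and 7–23 in the other libraries, with a log2 fold change of 0.95 (SE 0.35, adjusted p = 0.0534).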
